A study of Homo sapiens with 3 samples.

Results

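The genes described here are 10 stress transcription factors and cofactors of the CHOP, ATF and C/EBP kind, namely DDIT3, ATF4, ATF3, ATF5, JDP2, CEBPA, CEBPB, CEBPD, CEBPG and NUPR1. They were taken by name from the gene symbols of the annotation, and all 10 were found, each as 1 transcript cluster, among the 19208 genes that carry a single symbol. Their transcript levels were measured in LNCaP cells, a human prostate cancer line that depends on androgen, on 3 Human Gene 1.0 ST arrays. The first array held RNA of control LNCaP cells, the next RNA of cells given 70 µg/ml BP for 3 h and the last RNA of cells given the same dose for 24 h. BP is n-butylidenephthalide, a compound of Angelica sinensis. The label of the control gives neither a vehicle nor a harvest time, although the series title mentions DMSO, so an effect of BP and one of culture time cannot be told apart. With 1 array per condition no test could be made and no value carries an error, so that precision is limited by how few arrays there are. All values are the deposited log2 values, a difference is BP minus control (or 24 h minus 3 h) on that scale, and "higher" or "lower" by 2-fold means a log2 difference of at least 1. In bulk RNA, more transcript per cell and more cells that express a gene cannot be told apart.

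All members but NUPR1 encode proteins with a basic leucine zipper (bZIP), which bind DNA as dimers and whose partner sets the sites they occupy. In the integrated stress response, phosphorylation of the initiation factor eIF2 by PERK and related kinases lowers general translation while that of the ATF4 and ATF5 mRNAs goes up. ATF4 then activates DDIT3, which encodes GADD153/CHOP, and ATF3, and the unfolded protein response of the ER feeds into the same genes through IRE1-α and ATF6. CHOP pairs with C/EBP proteins and is known for its part in ER stress-induced apoptosis. ATF4 and ATF5 are thus regulated largely at translation, which an array of transcripts does not measure.

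Across the arrays, DDIT3 and ATF3 were more than 2-fold higher already at 3 h and were higher again at 24 h. CEBPB, CEBPG and NUPR1 were at most 1.28-fold higher at 3 h and between 1.69-fold and 1.88-fold higher at 24 h. ATF4 was 1.25-fold higher at 24 h, and CEBPA and CEBPD differed from the control array by 0.04 and -0.06 on the log2 scale at both times, and ATF5 and JDP2 had the same deposited value on all 3 arrays. Higher by 2-fold or more were 2 of the 10 after 3 h, against 0.344% of all genes, and the same 2, DDIT3 and ATF3, after 24 h, against 1.53%. None was as much lower, against 0.0469% of all genes after 3 h and 2.11% after 24 h. Among the 9604 genes with a mean level above the median, 6.06, 0.541% were as much higher after 3 h and 2.48% after 24 h. As much lower were 0.0416% and 3.69%. All 10 members lay among these genes, ATF3 only through its BP arrays. At a threshold of 1.5-fold, 2 members were higher at 3 h, where 1.55% of all genes were, and 5 at 24 h, where 4.49% were. The median difference of the 10 genes was 0.18 at 3 h and 0.54 at 24 h, while the median over all genes was 0.00 at both times. Both comparisons use the same control array.

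**Figure D1:**
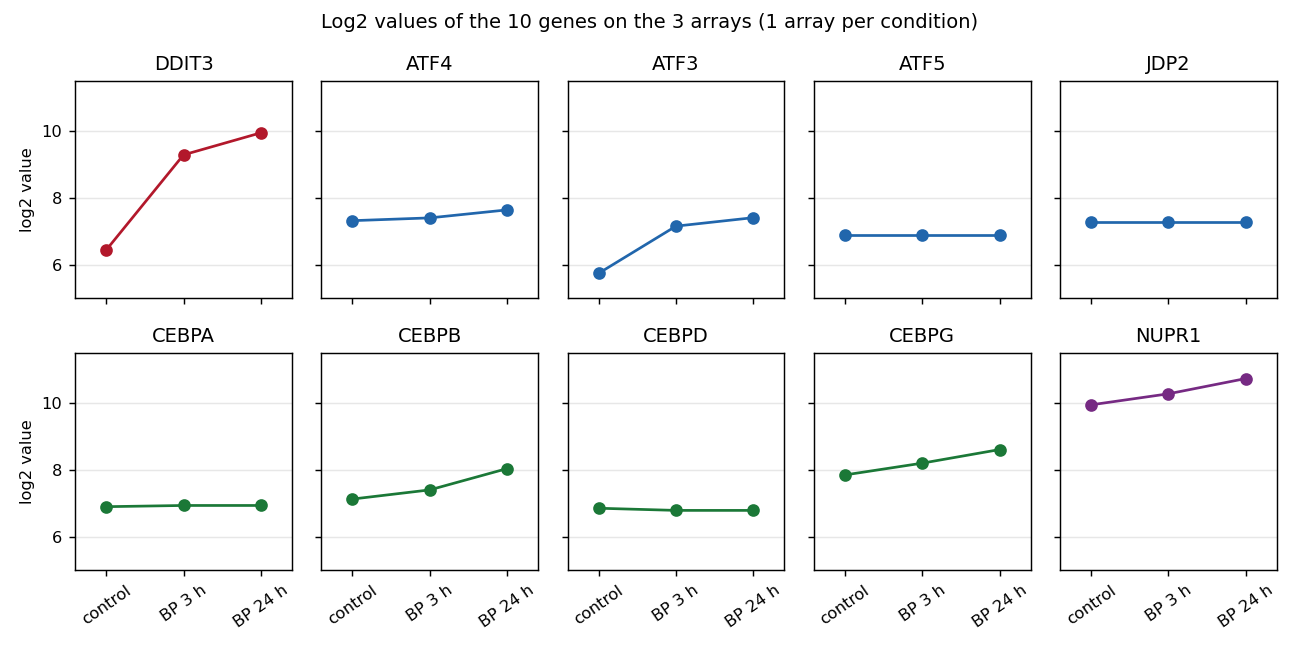
Log2 value (vertical axis) of each of the 10 genes on the control, BP 3 h and BP 24 h arrays, 1 point per array and no error bars because each condition had 1 array. DDIT3 goes from 6.44 to 9.29 and 9.95 and ATF3 from 5.75 to 7.16 and 7.41, while ATF5 and JDP2 are flat. Heights are to be compared within a gene only.

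DDIT3, in cytoband 12q13.1-q13.2, is the gene with the widest span of the 10. The control array read 6.44 on the log2 scale, the 3 h array 9.29 and the 24 h array 9.95. Both BP arrays stood far above the control array, and the 24 h array was the higher of these. The 3 h level was 7.21-fold that of control cells, rank 2 of the 19208 genes by difference, and the 24 h level was 11.4-fold, which is rank 1. From 3 h to 24 h the log2 difference was 0.66, or 1.58-fold, so 81.2% of the 24 h difference on the log2 scale was present at 3 h.

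The promoter of DDIT3 is shown because this gene leads the response and because transcripts of factors that bind such motifs were measured on the same arrays. From the RefSeq promoter table (assembly GRCh38.p14), windows from 250 bases before to 50 bases after an annotated start were used. These were 17 windows for 8 of the 10 members, with none used for CEBPD and NUPR1. In the sequence below, which covers chr12:57520515-57520764 on the minus strand up to the base before the first annotated start, capitals mark a match to the AP-1 motif and a match to the ER stress element.
DDIT3: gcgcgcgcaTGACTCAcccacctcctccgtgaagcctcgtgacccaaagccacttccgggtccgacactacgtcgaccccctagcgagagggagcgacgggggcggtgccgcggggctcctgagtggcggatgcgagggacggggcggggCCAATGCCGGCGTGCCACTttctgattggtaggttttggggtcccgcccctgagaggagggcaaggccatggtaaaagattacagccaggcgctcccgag

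The AP-1 match lies at positions -241 to -235, counting the start itself as 0. AP-1 dimers are formed by JUN and FOS proteins, and the motif searched, TGANTCA on both strands, was present in 7.71% of the 35116 promoter windows of the table. The other match lies at positions -100 to -82. The consensus of the ER stress element, which the NF-Y complex and ATF6 occupy together, is CCAAT and CCACG separated by 9 bases, and in DDIT3 the final base differs from it. With that base left free the element was found in 0.316% of all windows, and with the full consensus in 0.0769%. The search with the free base was added after the sequence had been read. A match describes letters only and does not show that a factor was bound.

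ATF3 encodes a bZIP repressor that is made within hours of many stresses. In cytoband 1q32.3, it read 5.75 on the control array, 7.16 on the 3 h array and 7.41 on the 24 h array (log2). Again both BP arrays lay above the control array. The differences were 2.66-fold and 3.17-fold in time order, with ranks of 28 and 77 among all genes. The step from 3 h to 24 h was 0.25, so 84.8% of the 24 h difference was present at 3 h.

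ATF4, the factor at the centre of the integrated stress response, moved little at the transcript level. Its log2 values were 7.32, 7.41 and 7.65 for control, 3 h and 24 h. The 3 h difference of 0.08 was 0.00 with the arrays centred on their 75th percentile and -0.01 after quantile normalization, so it has no settled direction. At 24 h the difference was 0.32, or 1.25-fold. This lies inside the range of -0.86 to 0.81 that remains after 2.5% of genes are removed from each end.

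ATF5, a second factor whose mRNA is translated under eIF2 phosphorylation, had a log2 value of 6.91 on each of the 3 arrays. JDP2, a repressor that dimerizes with JUN and is closely related to ATF3, had a value of 7.29 on each. The deposited digits were identical, and such a triple tie was found for 6569 of the 19208 genes, or 34.2%. Ties of this kind were thus common, and the values of ATF5 and JDP2 cannot be read as a measured constancy. Summaries by median polish, the last step of RMA, can return the same number for several arrays, and the part of this in the ties was not tested.

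The C/EBP genes split into a pair that was higher and a pair that was not. CEBPB encodes C/EBPβ, a main partner of CHOP, and had log2 values of 7.13, 7.40 and 8.04 for control, 3 h and 24 h. These are differences of 1.21-fold and then 1.88-fold. The later one, 0.91 on the log2 scale, lay above the upper end of the range just given, and 30.1% of it was present at 3 h. CEBPG, whose product lacks a transactivation domain and dimerizes with other C/EBP proteins and with ATF4, had values of 7.85, 8.20 and 8.61. The corresponding differences were 1.28-fold and 1.69-fold. The later one, 0.76 on the log2 scale, lay inside that range, unlike the later one of CEBPB.

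CEBPA encodes C/EBPα, which halts proliferation and drives differentiation in several tissues. Its log2 value was 6.90 in control cells and 6.93 on both BP arrays, a difference of 0.04 that turned to -0.04 at 3 h with the arrays centred on their 75th percentile and to -0.03 after quantile normalization. CEBPD, an early gene of the acute phase response, had 6.85 in control cells and 6.79 on both BP arrays. The difference of -0.06 was the lowest among the 10 genes at both times. As with ATF5, the equal digits of the BP arrays bear on how finely these 2 genes can be read, and 8.97% of all genes had equal values at 3 h and 24 h alone.

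NUPR1, in cytoband 16p11.2, encodes a small stress-induced chromatin cofactor without a bZIP domain. The log2 values 9.94, 10.27 and 10.73 followed the order control, 3 h and 24 h. NUPR1 was thus 1.26-fold above control early and 1.73-fold above it late. The late difference of NUPR1, 0.79 on the log2 scale, also lay inside the 24 h range of -0.86 to 0.81. At 3 h, 41.9% of its 24 h difference was present, and 46.5% of that of CEBPG, both shares below those of DDIT3 and ATF3.

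**Figure D2:**
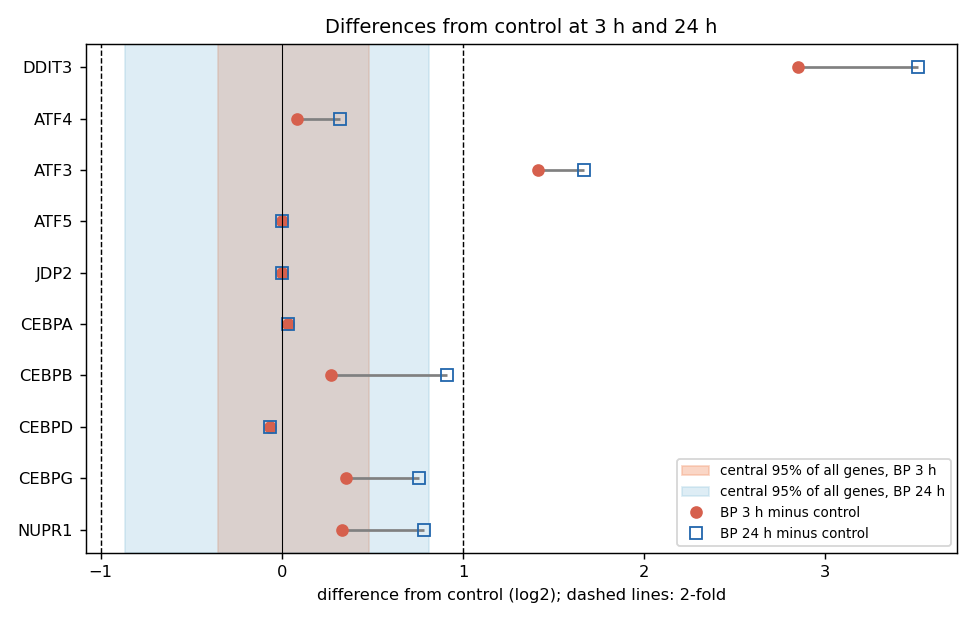
Difference from control on the log2 scale (horizontal axis) of the 10 genes (rows) at 3 h (filled circles) and at 24 h (open squares), with shading for the range of all genes without the lowest and highest 2.5% at each time and dashed lines at 2-fold. DDIT3 and ATF3 lie beyond the 2-fold line at both times, CEBPB at 0.91 lies just inside it at 24 h, and ATF5 and JDP2 lie at 0.00.

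Set against each other, the BP arrays showed smaller differences. Between 3 h and 24 h none of the 10 genes was at least 2-fold higher or lower, against 0.807% and 2.4% of all genes. DDIT3 and CEBPB had the widest steps, 0.66 and 0.64 on the log2 scale, and these were the 2 members at least 1.5-fold higher, against 2.45% of all genes. NUPR1 and CEBPG followed with 0.46 and 0.41, then ATF3 with 0.25 and ATF4 with 0.24. The other 4 genes had a step of 0.00.

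Short stretches of the other promoters with a match upstream of a start are shown to set them beside DDIT3. The motifs were the C/EBP-ATF response element (CARE), searched as TGATGNAA and present in 3.62% of all windows, AP-1 as above, the core of a C/EBP site, TTGCNNAA, present in 10.5%, and the cAMP response element, TGACGTCA, present in 1.85%. All were searched on both strands, and capitals mark the match.
ATF3, start 1, CARE, chr1:212565196-212565243, plus strand: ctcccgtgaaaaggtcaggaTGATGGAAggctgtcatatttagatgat
CEBPG, start 2, CARE, chr19:33374051-33374098, plus strand: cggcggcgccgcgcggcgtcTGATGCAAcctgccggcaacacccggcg
JDP2, start 2, CARE, chr14:75427986-75428021, plus strand: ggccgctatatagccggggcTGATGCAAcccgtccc
ATF5, start 1, AP-1, chr19:49928698-49928744, plus strand: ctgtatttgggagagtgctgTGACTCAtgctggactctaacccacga
ATF5, start 1, C/EBP core, chr19:49928782-49928829, plus strand: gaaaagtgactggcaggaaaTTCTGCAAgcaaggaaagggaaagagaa

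A CARE match was thus found at 1 start each of ATF3, CEBPG and JDP2, of which ATF3 was 3.17-fold and CEBPG 1.69-fold higher at 24 h while the values of JDP2 were tied. The windows of ATF3 start 1 and start 2 begin far apart, at chr1:212565157 and chr1:212614768, and only that of start 1 holds the match. With 1 transcript cluster per gene, which start was used cannot be told. The CARE letters were not found in the windows of DDIT3, ATF4, ATF5, CEBPA and CEBPB. The windows reach only 250 bases before a start, and sites further upstream were not searched, so this does not show that these promoters lack the element. The cAMP response element in full was found in none of the 17 windows. The AP-1 heptamer of DDIT3 was also found at 1 start of ATF5, whose values were tied on the 3 arrays. CEBPB, without a match in its windows, was 1.88-fold higher at 24 h.

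**Figure D3:**
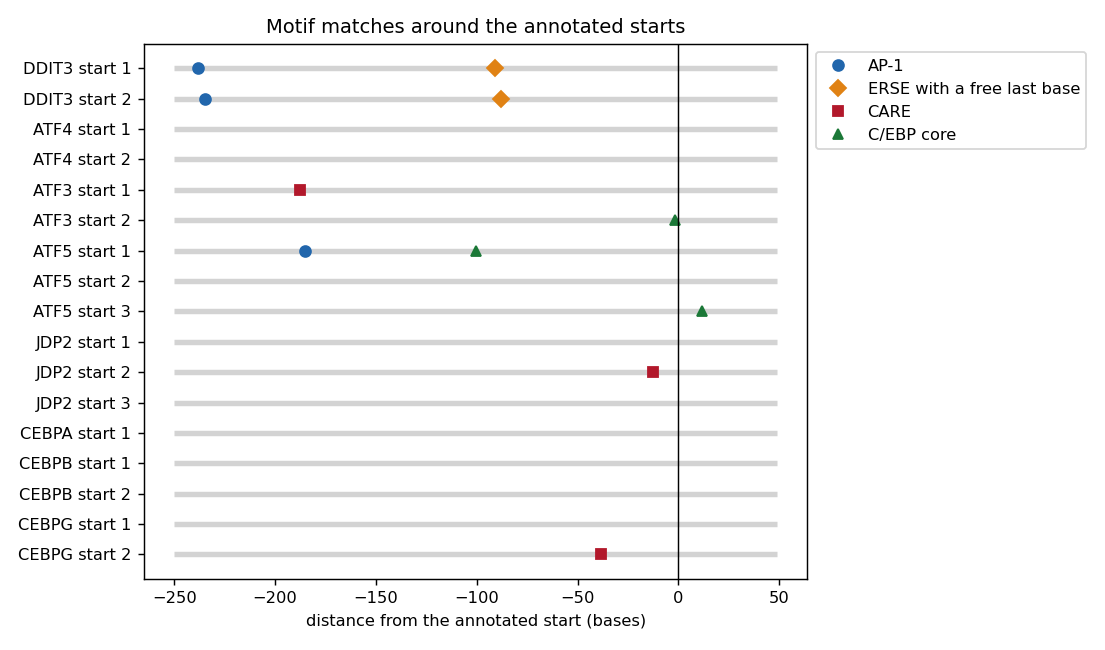
Position of each motif match relative to the annotated start (horizontal axis, in bases, with the start at 0) in the 17 promoter windows of 8 genes (grey lines), with a symbol for each motif. DDIT3 holds the AP-1 match and the ER stress element (ERSE) with a free last base in both of its windows, whose starts lie 3 bases apart.

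Other genes of the same pathways were counted in the same way, beside all-gene shares past 2-fold upward of 0.344% at 3 h and 1.53% at 24 h and downward of 0.0469% and 2.11%. Upstream of ATF4, 17 genes for eIF2 kinases, phosphatase subunits, eIF2 and eIF2B were measured. At 3 h none was past 2-fold in either direction, and at 24 h 1 was, upward. This was PPP1R15A, which encodes GADD34, the subunit that returns eIF2 to its unphosphorylated state and is itself a target of CHOP and ATF4. Its log2 values were 5.85, 6.46 and 7.13, a 2.43-fold difference at the later time. The median difference of this list was -0.01 at 24 h. Of 9 ER stress transducers and their effectors, 0 were past 2-fold at 3 h and 2 were higher by that much at 24 h. HSPA5, which encodes the chaperone BiP, went from 10.42 to 10.73 and 12.04, and ATF6 went from 8.43 to 8.76 and 9.62. In both genes the larger step came between 3 h and 24 h, unlike in DDIT3.

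Downstream, 61 target genes of ATF4 and CHOP were measured, of which 5 are members and were set aside. Past 2-fold upward were 2 of the other 56 after 3 h (all genes 0.344%) and 11 after 24 h (all genes 1.53%), and none was past 2-fold downward at either time. Their median difference was 0.20 at 3 h and 0.30 at 24 h. The list did not move as a whole. At 24 h, 41 of the 56 lay above control, 6 at their control value and 9 below it, down to -0.60. Over all genes these shares were 25.4%, 46.7% and 27.9%. The widest differences below control were those of amino acid synthesis genes, PSPH (-0.60), ALDH18A1 (-0.57), PHGDH (-0.40), PYCR1 (-0.32) and PSAT1 (-0.31). Such genes did not all go one way, with ASNS at 0.00, CBS at 0.27 and CTH at 0.82. DDIT4, an inhibitor of mTORC1 signaling, had the log2 values 7.88, 9.31 and 9.37 in the order control, 3 h and 24 h, so nearly the whole difference was present early, as in ATF3. GDF15, which encodes the secreted factor NAG-1, went from 9.12 to 10.66 and 11.65. VEGFA, which encodes an angiogenic factor, went from 7.32 to 8.19 and 9.23, SQSTM1, which encodes the autophagy receptor p62, from 9.37 to 9.78 and 11.11, and ERO1LB, which encodes an ER oxidase, from 4.25 to 4.75 and 5.80. These last 3 genes were below 2-fold at 3 h and between 2.93-fold and 3.76-fold higher at 24 h. ERO1LB lay below the median level of all genes, 6.06, on each array. The oxidase that the paper describes as a target of GADD153 is ERO1-Lα, the product of ERO1L. This gene of the list went from 7.67 to 7.65 and 8.73, a log2 difference of 1.07 at 24 h. TRIB3, a pseudokinase gene induced by CHOP and ATF4 whose product binds both, was also listed among partners and turnover factors of the members, where it was the 1 of 13 genes at least 2-fold higher at 24 h. Its log2 values were 7.44, 8.20 and 8.74.

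Of 23 measured target genes of C/EBP factors from liver, fat and myeloid cells, 0 were past 2-fold against control at either time, beside the all-gene shares at 24 h of 1.53% higher and 2.11% lower. A count of 0 among 23 genes is near those shares. On the control array all of them but ELA2 (7.08) lay below the median level of all genes, 6.06. FABP4 read 1.82 there, IL6 2.82 and ALB 3.12. How far such low values limit the differences that could be seen was not tested. The median difference was -0.02 at 3 h and 0.00 at 24 h, with 14 genes exactly at their control value at the later time, as were 46.7% of all genes. The widest difference at 24 h was that of LCN2, which encodes lipocalin 2 of the acute phase response. Its log2 values were 5.89, 5.53 and 6.54, so that it was 2.01-fold higher at 24 h than at 3 h. On the control and 3 h arrays LCN2 lay below the median level, 6.06.

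**Figure D4:**
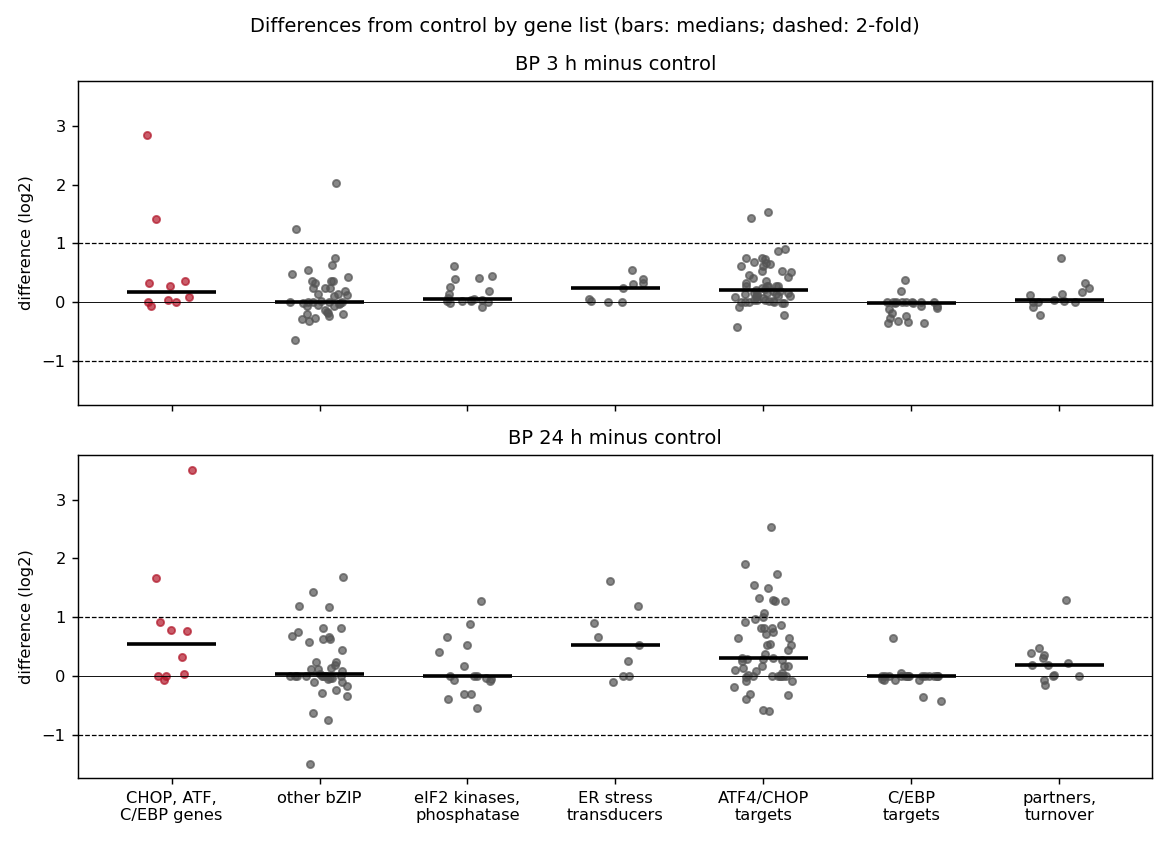
Difference from control on the log2 scale (vertical axis) for the genes of each list, at 3 h in the upper and at 24 h in the lower panel, 1 point per gene, with bars at the medians and dashed lines at 2-fold. Members of the 10-gene set are left out of the other lists. The ATF4 and CHOP targets have 11 of 56 genes above the upper 2-fold line at 24 h and the C/EBP targets 0 of 23. All C/EBP targets but ELA2 lay below the median level of all genes, 6.06, on the control array. The lists are thus not matched in level.

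Among 41 other bZIP genes, 2 passed 2-fold upward after 3 h (all genes 0.344%) and 4 after 24 h (all genes 1.53%), and 1 passed it downward after 24 h (all genes 2.11%). JUN, the core subunit of AP-1, had log2 values of 7.30, 9.32 and 8.48, and was thus highest at 3 h, whereas DDIT3 was highest at 24 h. NFIL3, a bZIP repressor, went from 6.78 to 8.02 and 8.47. ATF6 is the gene already described. MAFG, a small MAF partner of NRF2, went from 7.57 to 7.93 and 8.99, a log2 difference of 1.43 at 24 h that was 0.76 when the clusters of this gene were averaged. CREB3L4, a membrane-bound factor abundant in prostate epithelium, had 7.39, 7.75 and 5.90, the last below control. The median difference of this list at 24 h was 0.03, against 0.54 for the 10 members.

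The genes nearest to the changed members in the plane of the 3 h and 24 h differences were sought among 9603 genes above the median level, over the 3 arrays. DDIT3 had no close neighbour, but few genes can lie near one of rank 2 at 3 h and rank 1 at 24 h. The nearest were DUSP1, a phosphatase that acts on MAP kinases, at a distance of 1.30 on the log2 scale, ID2, an inhibitor of basic helix-loop-helix factors, and then GDF15 at 1.64. DUSP1 and ID2 were lower at 24 h than at 3 h, with steps of -0.83 and -0.15, while DDIT3 and GDF15 were higher. ATF3 had near neighbours, with ELF3, an epithelial transcription factor, at 0.12, C5orf41 (current symbol CREBRF), which encodes a regulator of CREB3, at 0.14, and NFIL3 at 0.17. ELF3 had log2 values of 5.86, 7.37 and 7.45, next to the 5.75, 7.16 and 7.41 of ATF3. On the control array ELF3 and C5orf41 (5.50) lay below the level limit of 6.06, so both passed it only through their BP arrays.

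Markers of the luminal prostate epithelium were set beside these differences. Of 11 measured, 0 were past 2-fold at 3 h (all genes 0.344% higher and 0.0469% lower). At 24 h 7 were at least 2-fold lower, against 2.11% of all genes. KLK3, the gene of prostate-specific antigen, stood at 7.38 at 24 h against 10.16 in control cells. The markers did not all go one way, since 3 of the 11 were higher at 24 h, KRT8, which encodes a keratin of simple epithelia, by the most, from 10.14 to 11.08. The log2 of the summed level of the list was 13.02, 12.99 and 12.46 for control, 3 h and 24 h. Of 17 markers of basal, mesenchymal, blood, endothelial and neuroendocrine cells, 0 were past 2-fold at either time. A count of 0 among 17 genes is near the all-gene shares, at 24 h 1.53% higher and 2.11% lower. At 24 h 13 of these markers were exactly at their control value, as were 46.7% of all genes. Their values ranged from 2.17 to 6.86 in control cells and from 2.17 to 7.38 at 24 h, and the log2 of their summed level was 9.54, 9.51 and 9.69. Levels of different probes are not on a common scale, so these lists are read across the arrays only. The part of either shift in the differences of the 10 genes was not tested.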

How the data were processed

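Total RNA of LNCaP cells was hybridized to Human Gene 1.0 ST arrays, 1 per condition. For 33297 transcript clusters, log2 values were deposited by the authors. The submitters' processing notes name RMA in Affymetrix Expression Console, which corrects background, normalizes and summarises probes by median polish and can narrow differences, but MAS5.0 with scaling of each chip is what the Methods give. Which of these made the values is not settled. Array medians were 5.48, 5.46 and 5.48. Detection calls were not used here. The authors also deposited their own comparisons (log2 ratios and folds), which were not used. Other columns used, as deposited, were cluster identifiers, gene symbols and cytobands, of a build not stated in the sources used here.

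Clusters with 1 symbol (20087) gave 19208 genes, each by its cluster with the highest mean. Clusters with several symbols (1904) or none (11306) were left out. Differences were computed without further scaling. The members and gene lists were chosen with earlier results of these data known, so the counts over lists are no independent support. From each list the genes past 2-fold with the widest differences were named, up to 4 by the 24 h and 2 by the 3 h value (without any, the widest 1), plus the 3 nearest genes to each member past 2-fold. ERO1L was named besides these, because the paper measured its protein, and was not followed through the alternatives. Alternatives were 3 scalings, averaging of clusters, a filter at the median level, and thresholds of 1.5-fold and 3-fold. The calculation was tested on simulated data. Promoters were matched by symbol to RefSeq (GRCh38.p14). Python 3.11.15, numpy 2.4.6, pandas 2.3.3 and matplotlib 3.10.9 were used.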

Additional observations from a re-analysis of the deposited data

Results flagged for a closer look

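Among the genes that the stated rule named, a pair lay on opposite sides of control cells at 3 h and at 24 h, and this difference between times was not tested. CREB3L4, of the other bZIP genes, had a log2 difference of 0.36 at 3 h and of -1.49 at 24 h. LCN2, of the C/EBP target genes, had one of -0.36 at 3 h and of 0.65 at 24 h. The control and 3 h values of LCN2 lay below the median level of all genes, 6.06. Genes of the lists that the rule did not name were not searched for this, and none of the 10 members lay on opposite sides. With 1 array per condition, no array could be compared with others of its group.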

How the results depend on the processing

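The counts of members moved with the threshold of the fold. At 3-fold, 1 member in place of 2 was higher at 3 h, and at 1.5-fold 5 in place of 2 were higher at 24 h and 2 in place of 0 between 3 h and 24 h. Centring on the array median, centring on the 75th percentile, and quantile normalization changed none of these counts. Averaging the clusters of a gene and a filter at the median level could not change them, since each member has 1 cluster and all 10 passed the filter, ATF3 only through its BP arrays (5.75 in control cells, below the limit of 6.06), so these 2 settings say nothing of stability. Scaling moved the members' differences by -0.10 to 0.09 on the log2 scale. The direction of ATF4 at 3 h, of CEBPA at 3 h and between the BP arrays, of CEBPD between the BP arrays and of ATF5 and JDP2 in all 3 comparisons depended on it. Among the other named genes, GDF15 passed 2-fold between 3 h and 24 h with centring on the 75th percentile (1.05) and quantile normalization (1.06), LCN2 lost it with centring on the median (1.00 to 2 decimals, below the threshold), and MAFG lost it at 24 h (0.76) and between 3 h and 24 h (0.64) with clusters averaged. LCN2 and ERO1LB did not pass the filter at the median level, so that setting says nothing of them. Signal over background was not given, so differences of low values cannot be weighed. No paired analysis was possible because each condition had 1 array.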
